A study of Mus musculus with 4 samples.

Results

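The GIMAP genes (GTPases of immunity-associated proteins) of the mouse were examined in CD8+ T cells that had entered tumours of the B16-GP33 melanoma line. The members are the 8 genes of the deposited expression table with the symbols Gimap1, Gimap3, Gimap4, Gimap5, Gimap6, Gimap7, Gimap8 and Gimap9, of 24537 genes in all. They were chosen by family name, and all 8 exceeded the mean level of 1 FPKM required for testing. The libraries came from tumour-infiltrating CD8+ T cells taken on day 21, with 2 libraries of the genotype EV, the control, and 2 of the genotype ACSS2NLS. All 4 share the tumour and the day. ACSS2 is the enzyme that turns acetate into acetyl-CoA, and NLS commonly stands for nuclear localisation signal. With no group that received ACSS2 lacking the signal, level and location of the enzyme cannot be told apart. The labels do not give the construct, its promoter, the age or strain of the mice, or whether each library is from its own mouse. The p-values therefore reflect the spread among these libraries alone, which may be technical. The comparison asks how tumour-infiltrating T cells differ in expression when labelled ACSS2NLS.

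GIMAP proteins share a GTP-binding domain that contains a P loop, a short glycine-rich stretch that holds the phosphates of the nucleotide. They are found mainly in lymphocytes, where several members sit on membranes of lysosomes, mitochondria or the endoplasmic reticulum and regulate the survival of T and B cells. Loss of Gimap5 or Gimap1 in rodents depletes peripheral T cells, so these members are known as survival requirements of resting lymphocytes.

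The 8 genes lie side by side on chromosome 6 (mm10, chr6:48647361-48770851, 123.5 kb), with 6 on the plus strand and 2, Gimap6 and Gimap3, on the minus strand. The codons of the P loop are shown because they encode the nucleotide-binding stretch that the members share, which is also found in many other GTPases and ATPases. A P loop was searched as glycine, 4 residues of any kind, glycine, lysine and serine or threonine in the coding frame of the GENCODE M21 transcript that matches each deposited RefSeq accession. It was found once in 7 genes and 3 times in Gimap8, which encodes 688 residues against 219 to 308 in the other members. Each is printed 5′ to 3′ on the coding strand with the codons of the required residues in capitals.

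Gimap1: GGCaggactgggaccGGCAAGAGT
Gimap3: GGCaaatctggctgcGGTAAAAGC
Gimap4: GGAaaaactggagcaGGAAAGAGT
Gimap5: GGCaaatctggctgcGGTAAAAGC
Gimap6: GGGaaaacaggaagcGGGAAAAGT
Gimap7: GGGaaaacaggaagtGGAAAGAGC
Gimap8 P loop 1: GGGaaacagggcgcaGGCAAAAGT
Gimap8 P loop 2: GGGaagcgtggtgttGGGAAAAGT
Gimap8 P loop 3: GGAaggagtggggctGGAAAGAGT
Gimap9: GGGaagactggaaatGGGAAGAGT

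Of the 24 bases, 11 were the same in all 10 P loops. Most of these lie in the codons in capitals, whose residues the search itself required, so their sharing is largely set by the search. Gimap3 and Gimap5 had the same 24 bases. The stretches of Gimap8 lie in exons 2, 4 and 5 at chr6:48650256-48650279, chr6:48656119-48656142 and chr6:48658746-48658769 on the plus strand. That of Gimap5 lies in exon 3 at chr6:48752594-48752617 on the plus strand, and that of Gimap3 in exon 5 at chr6:48765887-48765910 on the minus strand. Each of the other 5 lies within a single coding exon of its gene.

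Gimap3 and Gimap5 were the closest pair in sequence, with 87.1% identity of coding bases. The next pair, Gimap7 and Gimap9, had 64.2%, and 26 of the 28 pairs were below 60%. The longest coding run that Gimap3 and Gimap5 share without a difference had 140 bases, against at most 17 bases in any other pair. It is shown because a read that lies inside it cannot be assigned to either gene by its sequence.

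Gimap3 and Gimap5 shared run: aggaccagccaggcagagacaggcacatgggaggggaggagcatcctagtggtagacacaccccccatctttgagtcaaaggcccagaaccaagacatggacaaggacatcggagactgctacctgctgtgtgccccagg

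This run lies at chr6:48752684-48752823 in exon 3 of Gimap5 and at chr6:48765681-48765820 in exon 5 of Gimap3, on opposite strands of the genome. Of all stretches of 50 bases in the transcript, 9.83% in Gimap3 and 15.1% in Gimap5 also occurred in a transcript of another gene. The share was 12.8% in Gimap1, mostly with the predicted transcript Gm28053, which also holds sequence of Gimap5, and 2.62% in Gimap7. It was 0% in Gimap4, Gimap6, Gimap8 and Gimap9. The levels of Gimap3 and Gimap5 are in this respect less certain than those of Gimap4, Gimap6, Gimap8 and Gimap9. The level of Gimap1 may be less certain too. Whether Gm28053 lies over the same bases of the genome, where a shared read would have a single place, was not checked. Gimap1 also shares 201 exon bases with the antisense transcript Gimap1os. The libraries were made with SMART-Seq v4, a kit whose usual protocol does not mark strand, so reads of the pair cannot be told apart.

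**Figure D1:**
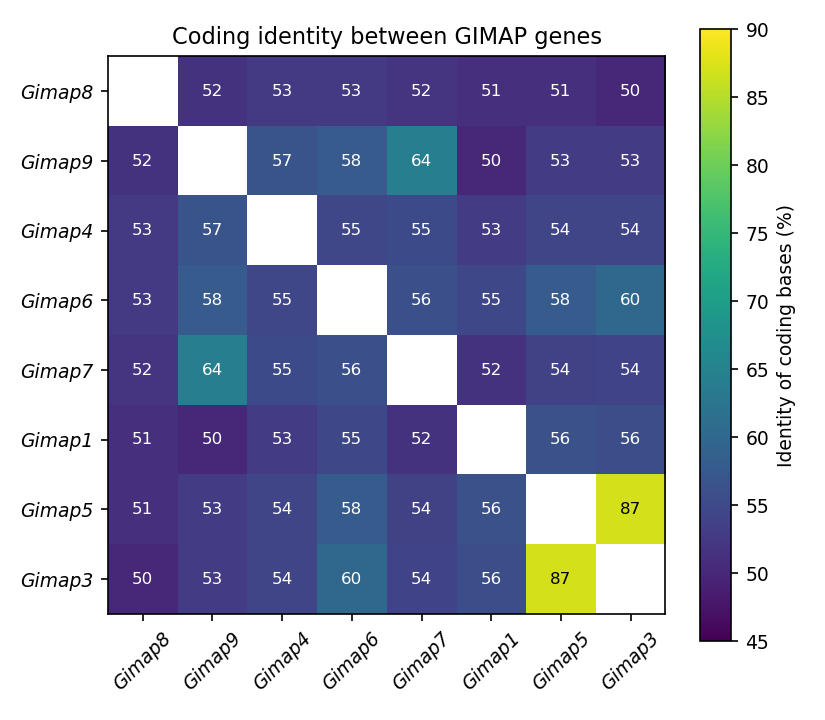
Identity of coding bases between each pair of GIMAP genes, in percent of the alignment columns, with the genes in the order of the chromosome on both axes. The pair of Gimap3 and Gimap5 stands at 87%, and the other pairs lie between 50% and 64%.

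The libraries held about 46000000 to 49300000 tags, recovered from the steps of the deposited values. Acss2 was at 3.66 and 3.92 FPKM in EV and at 80.7 and 86.3 FPKM in ACSS2NLS, which matches the labels. FPKM are tags scaled by exon length and by library depth, and the 4 values of a gene are given here in the order EV replicates 1 and 2, then ACSS2NLS replicates 1 and 2. Both replicate 2 libraries held more RNA of other tumour cells. The summed level of 16 myeloid markers was 78.3 and 538 FPKM in EV, against 209.7 and 939 FPKM in ACSS2NLS, and that of 9 melanoma markers was 5.60 and 39.1, then 12.0 and 139 FPKM. None of these markers was at 0 in any library. The 12 T cell markers summed to 2521 and 2086 FPKM in EV and to 2348 and 1841 FPKM in ACSS2NLS, and 10 of the 12 were lower in replicate 2 in both groups. The means of these markers also differed between the groups. In ACSS2NLS, 14 of 15 tested myeloid and 6 of 6 tested melanoma markers were higher on average, beside 53.2% of all genes tested. The median log2 changes of these lists were 0.87 and 1.15. However, in 0 of these tested markers were both ACSS2NLS libraries above both EV libraries. In all 15 myeloid and all 6 melanoma markers the change was smaller than the larger difference between replicates. Of the 12 T cell markers, 10 were lower on average (median -0.13), and 0 of the markers passed the test. The part of this difference in the results, between replicates and between groups, was not tested. In bulk libraries, fewer T cells and less RNA per T cell cannot be told apart.

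GIMAP transcripts were abundant in these T cells. Summed over the 8 genes, their level was 986 and 854 FPKM in EV, against 1029 and 758 FPKM in ACSS2NLS, or 0.370% and 0.334%, then 0.409% and 0.300%, of the tags on exons. The ACSS2NLS libraries were the highest and the lowest of the 4, with both EV libraries between them. Of the 8 genes, 5 ranked among the 500 highest of the 9810 genes tested, from rank 56 (Gimap4) to rank 303 (Gimap1), while Gimap9, Gimap5 and Gimap8 ranked 1688, 1843 and 3759. Each value rested on 1335 to 21239 tags, so counting error was at most 2.74% of a value.

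**Figure D2:**
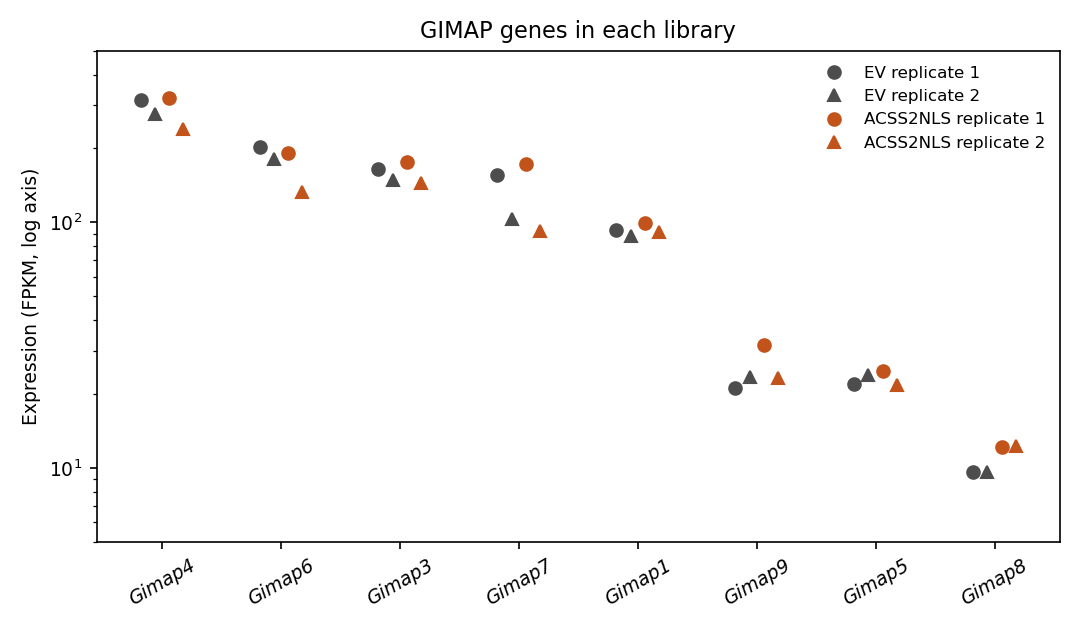
Level of each GIMAP gene in each library in FPKM on a log axis, ordered by the mean over the 4 libraries, with circles for replicate 1, triangles for replicate 2, grey for EV and orange for ACSS2NLS. The genes span from about 10.9 FPKM (Gimap8) to 289 FPKM (Gimap4) in mean, and Gimap8 is the single member whose orange points both lie above its grey points.

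Gimap4 was highest, with a mean of 289 FPKM over the 4 libraries. It was followed by Gimap6 (177 FPKM), Gimap3 (158 FPKM), Gimap7 (131 FPKM) and Gimap1 (92.9 FPKM), then by Gimap9 (24.8 FPKM), Gimap5 (23.1 FPKM) and Gimap8 (10.9 FPKM), a 26.5-fold span. Among neighbours in this order, the library values did not overlap between Gimap4 and Gimap6, between Gimap1 and Gimap9 or between Gimap5 and Gimap8. Gimap3 was above Gimap7 and Gimap7 above Gimap1 in each of the 4 libraries, although the ranges overlapped. Gimap6 exceeded Gimap3 in 3 of 4 libraries and Gimap9 exceeded Gimap5 in 2 of 4, so neither pair had the same order throughout. Gimap9 was below Gimap5 in both EV libraries (21.1 against 21.9 and 23.3 against 23.9 FPKM). It was above Gimap5 in both ACSS2NLS libraries (31.7 against 24.8 and 23.2 against 21.7 FPKM). A change of order between groups was not tested. The closest relatives in sequence, Gimap3 and Gimap5, were far apart in level: the ratio of Gimap3 to Gimap5 was 7.55 and 6.26 in EV and 7.07 and 6.66 in ACSS2NLS.

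In the comparison of ACSS2NLS with EV, 0 of the 8 genes passed the test. Each gene was tested on log2(FPKM + 1) with limma-trend, which moderates the spread of a gene with that of genes of like level, and p-values were Benjamini-Hochberg adjusted over all 9810 genes with a threshold of 0.05. Over all genes, 2 passed upward (0.0204%), Acss2 and Acss2os, and 0 downward (0%). Acss2os is annotated within the bounds of Acss2 on the opposite strand, and reads from any exon bases that this pair shares cannot be told apart either. Shared exon bases of this pair were not counted. The smallest adjusted p of a GIMAP gene was 0.81 and the largest was 0.9998. At an unadjusted p under 0.05, 1 member was higher and 0 lower, where 3.1% of all genes tested were higher and 2.87% lower. The log2 change was positive in 6 members, beside 53.2% of all genes tested, and negative in Gimap4 and Gimap6. For Gimap4 it turned to 0.012 when libraries were scaled to T cell markers. The change was smaller than 0.1 in either direction for 5 of the 8. The median log2 change was 0.020, beside 0.015 for all genes tested. The 95% interval of each of the 8 changes lay within a log2 change of 1 in either direction, a doubling or halving of FPKM + 1, and the widest, that of Gimap7, ran from -0.87 to 0.87.

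**Figure D3:**
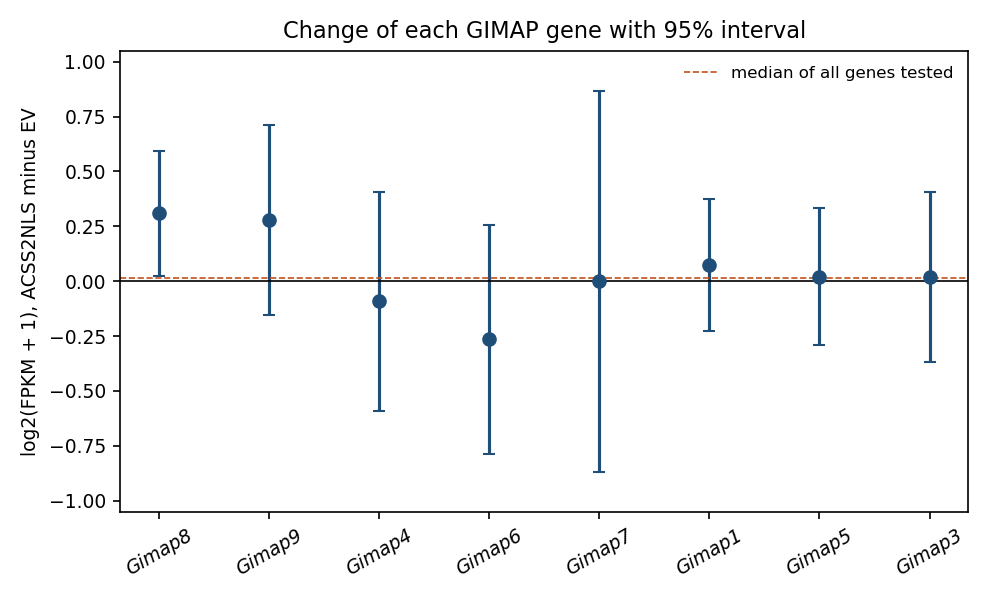
Log2 change of each GIMAP gene (ACSS2NLS mean minus EV mean of log2(FPKM + 1)) with its 95% interval from limma-trend, 2 libraries per group, with the genes in the order of the chromosome. Only the interval of Gimap8 lies above 0 (0.023 to 0.60, not adjusted for the number of genes), and the dashed line marks the median of all genes tested at 0.015.

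Gimap5, a member whose loss causes lymphopenia, was near the same level in both groups. It was at 21.9 and 23.9 FPKM in EV and at 24.8 and 21.7 FPKM in ACSS2NLS. The groups overlapped, with ACSS2NLS holding both the highest and the lowest value. The log2 change was 0.021 ± 0.12 (SE, n = 2 per group; limma-trend, adjusted p = 0.98; 95% interval -0.29 to 0.33). Its relative Gimap3 was at 165 and 149 FPKM in EV and at 175 and 144 FPKM in ACSS2NLS. Here too the ACSS2NLS libraries stood on either side of the EV libraries (a log2 difference of 0.019 ± 0.16, adjusted p = 0.99).

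Gimap1, which mature T and B cells need to persist, was the steadiest of the abundant members. Its level was 93.3 and 87.6 FPKM in EV, against 99.0 and 91.5 FPKM in ACSS2NLS, and the groups overlapped. The means were 90.5 ± 4.04 and 95.3 ± 5.30 FPKM (SD, n = 2), with a log2 change of 0.074 ± 0.12 (SE; adjusted p = 0.92). With 1 library left out it lay between 0.018 and 0.13.

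Gimap4, a member linked to faster death of T cells, was at 316 and 277 FPKM in EV and at 321 and 239.9 FPKM in ACSS2NLS. The ACSS2NLS values again enclosed those of EV, and the log2 change was -0.092 ± 0.20 (adjusted p = 0.94). Gimap6, which binds the autophagy protein GABARAPL2, was at 203 and 181 FPKM in EV and at 191 and 133 FPKM in ACSS2NLS. Its lowest value was that of ACSS2NLS replicate 2, and the other ACSS2NLS library lay between the EV libraries. Gimap6 had the most negative change of the family, -0.26 ± 0.21 (adjusted p = 0.84, 95% interval -0.79 to 0.26). Without ACSS2NLS replicate 1 the value was -0.53, and without ACSS2NLS replicate 2 it was -0.0031.

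Gimap7 varied most between libraries. It was at 155 and 103 FPKM in EV and at 173 and 92.4 FPKM in ACSS2NLS, so both replicate 1 libraries were above both replicate 2 libraries. The means were 129 ± 37.1 and 133 ± 57.3 FPKM (SD, n = 2), and the log2 change was 0.00067 ± 0.35 (adjusted p = 0.9998). Relative to the geometric mean of the 12 T cell markers, Gimap7 stood at 1.08 and 0.852 in EV and at 1.25 and 0.855 in ACSS2NLS, so replicate 1 remained the higher in both groups on this scale. Without ACSS2NLS replicate 1 the log2 change was -0.45, and without ACSS2NLS replicate 2 it was 0.45. Leaving out either library unbalances the replicate numbers between the groups. With the replicate number as a block, a pairing that the labels do not state, the log2 change was 0.00067 ± 0.13 (SE).

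The remaining members were Gimap8 and Gimap9, the pair with the most positive changes and the pair nearest the Gimap8 end of the cluster. Gimap9 was at 21.1 and 23.3 FPKM in EV and at 31.7 and 23.2 FPKM in ACSS2NLS. ACSS2NLS replicate 1 was higher than the other 3 libraries, which lay close together, and the log2 change was 0.28 ± 0.17 (adjusted p = 0.82). Without that library it was 0.064, and without ACSS2NLS replicate 2 it was 0.50.

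Gimap8, the largest member, was at 9.65 and 9.61 FPKM in EV and at 12.1 and 12.2 FPKM in ACSS2NLS. It was the single member whose groups did not overlap. The deposited exon length of Gimap8 is 3641 bases, against 3138 in the GENCODE transcript, and the shorter length would raise its FPKM in all 4 libraries alike, so its level relative to other members is less certain than the comparison between groups. Both ACSS2NLS libraries exceeded both EV libraries in 19.3% of all genes tested, and both were below in 18.1%, so 1 of 8 members higher and 0 lower is not above the background. Its mean was 1.26-fold higher in ACSS2NLS, with a log2 change of 0.31 ± 0.11 (SE, n = 2 per group; limma-trend, unadjusted p = 0.0385, adjusted p = 0.81; 95% interval 0.023 to 0.60). The tags behind these values were 1614 and 1725 in EV and 2155 and 2150 in ACSS2NLS. Counting error alone gives an SD of about 0.236 FPKM in EV, against 0.262 FPKM in ACSS2NLS, whereas the observed SD was 0.0233 and 0.0636 FPKM. The replicates of Gimap8 thus lay closer together than counting allows on average, and their SD understates its error. Gimap8 supplied 2.27% and 2.57% of the GIMAP tags in EV and 2.72% and 3.65% in ACSS2NLS.

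The 250 bases before the start site of Gimap8 (GRCm38.p6, chr6:48647111-48647360, plus strand, from RefSeq) are shown because Gimap8 was the member whose groups did not overlap, although it did not pass the test. Motifs were searched on both strands in windows of 300 bases around the start sites: GGAAGT for ETS, TGTGGT for RUNX, CTTTGA for TCF and LEF, CCACCC for KLF and TATAAA. Capitals mark any match.

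Gimap8 upstream: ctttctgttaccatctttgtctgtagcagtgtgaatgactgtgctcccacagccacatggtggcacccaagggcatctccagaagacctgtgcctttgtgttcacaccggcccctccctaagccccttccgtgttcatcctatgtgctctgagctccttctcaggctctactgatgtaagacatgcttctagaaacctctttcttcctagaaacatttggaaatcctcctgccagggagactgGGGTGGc

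The single match in this stretch was that of the KLF letters on the minus strand, beginning 7 bases before the start. The window of the other RefSeq start site of Gimap8 held none of the motifs. Those letters occurred in windows of 5 of the 8 members and in 31.5% of all 32851 windows. The ETS letters occurred in 4 members (Gimap1, Gimap5, Gimap6 and Gimap9) against 23.8% of all windows, and the RUNX letters in 3 (Gimap1, Gimap4 and Gimap7) against 16.8%. TCF and LEF letters occurred in Gimap4 and Gimap7 (16.0% of all windows) and TATAAA in Gimap6 (13.6%). No motif was in all members. A match is a description of the letters, not of binding.

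The larger differences of the family were those between the libraries of a group. In 7 of 8 members the change between groups was smaller than the larger of the differences between replicates, as it was for 74.9% of all genes tested. The exception was Gimap8. Replicate 2 was below replicate 1 in both groups for 5 members (Gimap1, Gimap3, Gimap4, Gimap6 and Gimap7), the 5 most abundant, and above it in both groups for 0. Of all genes tested, 26.5% were lower in replicate 2 in both groups. Relative to the geometric mean of the T cell markers, that of the 8 GIMAP genes stood at 0.498 and 0.546 in EV and at 0.579 and 0.580 in ACSS2NLS. On this scale both ACSS2NLS libraries were the higher, and 0 members passed the test after such scaling. That scaling moved the median of all genes to 0.10, and the median of the 8 members to 0.12.

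**Figure D4:**
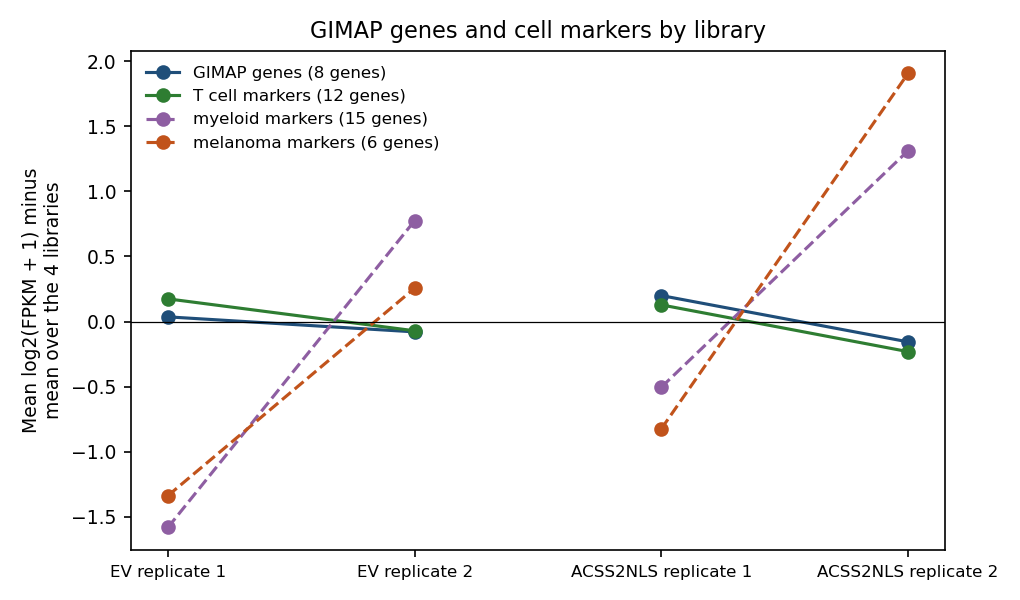
Mean log2(FPKM + 1) of the GIMAP genes and of 3 marker lists in each library, relative to the mean over the 4 libraries and over the genes of each list with a mean of at least 1 FPKM. Lines join the libraries of a group: GIMAP genes and T cell markers are lower and myeloid and melanoma markers higher in replicate 2 of both groups.

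GIMAP genes are also expressed by endothelial and B cells, so markers of both were examined. Of 12 endothelial markers, 9 were under 0.5 FPKM in every library, and their summed level was 10.7 and 12.1 FPKM in EV, against 11.7 and 14.3 FPKM in ACSS2NLS, most of it from Pecam1, which T cells also express. The endothelial cadherin gene Cdh5 reached at most 0.041 FPKM. Of 7 B cell markers, 6 were under 0.5 FPKM in every library, and their sum was 1.61 and 2.51, then 3.18 and 3.29 FPKM. The share of GIMAP RNA that came from these or other cells of the tumour was not tested. Markers of NK cells summed to 9.29 and 27.8, then 19.2 and 36.4 FPKM. Most of this came from Fcgr3 (2.09 and 18.3, then 6.93 and 25.6 FPKM) and Eomes (4.23 and 5.52, then 9.34 and 9.16 FPKM). Fcgr3 was higher in replicate 2 of both groups, like the myeloid markers. Each other NK marker was at most 1.90 FPKM, and Klrb1c was lower in both ACSS2NLS libraries (1.34 and 1.90, then 0.976 and 0.560 FPKM). Markers of CD4 and regulatory T cells summed to 8.71 and 11.3, then 8.66 and 13.3 FPKM, and fibroblast markers to 0.080 and 5.05, then 8.24 and 8.16 FPKM.

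The GIMAP cluster stood out from its surroundings in level. Within 500 kb of its ends the table lists 23 other genes, of which 6 were listed at 0 in every library and 11 had a mean of at least 1 FPKM. Their median level was 0.648 FPKM, against 112 FPKM for the 8 members, and 2 of them, Malsu1 (14.0 FPKM) and Gpnmb (13.6 FPKM), had a mean above that of Gimap8. On the flank next to Gimap8, AI854703 lay 13.7 kb away at 0.412 to 0.745 FPKM and Zfp775 24.1 kb away at 1.22 to 1.49 FPKM. On the flank next to Gimap3, Tmem176b lay 63.0 kb away at 2.03 and 3.99 FPKM in EV, against 2.79 and 5.70 FPKM in ACSS2NLS.

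Among these neighbours 0 of 11 passed the test (adjusted p from 0.82 to 0.99), and each of the 11 was higher in mean in ACSS2NLS (over all genes tested, 53.2%). Their median log2 change was 0.12, and without ACSS2NLS replicate 2 it was -0.069, without ACSS2NLS replicate 1 0.40. Replicate 2 was above replicate 1 in both groups for 9 of the 11, the reverse of the pattern in the abundant GIMAP genes. The same held for 3422 of the 9810 genes tested. Gpnmb, a gene of pigment cells and macrophages, was at 2.16 and 7.76 FPKM in EV and at 2.60 and 41.9 FPKM in ACSS2NLS. It followed the melanoma and myeloid markers across the libraries. The other 8 tested neighbours, Zfp862-ps, Lrrc61, Rarres2, Repin1, Tmem176a, Malsu1, Igf2bp3 and Tra2a, had log2 changes of 0.036 to 0.43.

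**Figure D5:**
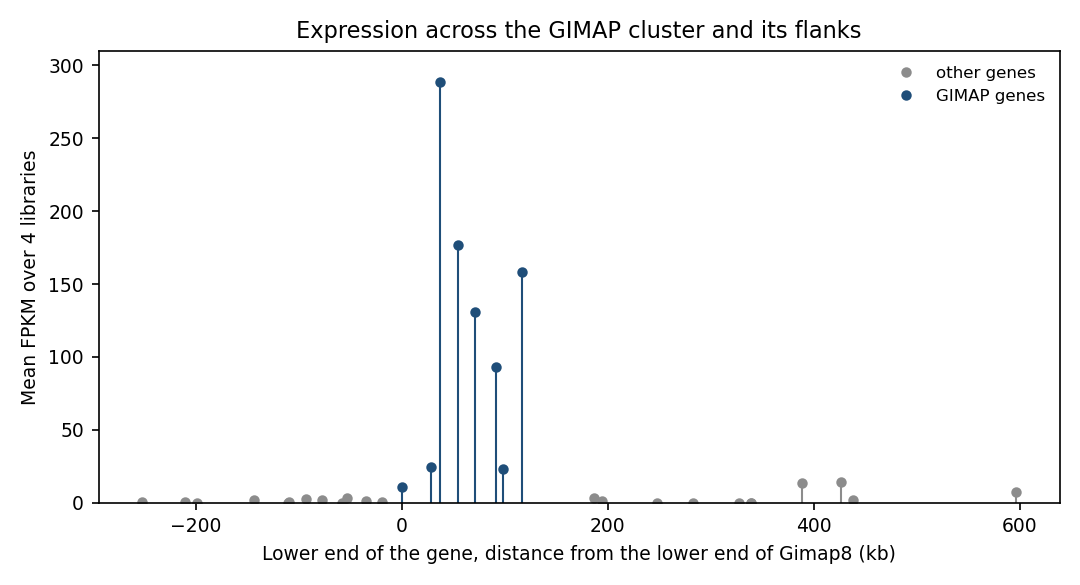
Mean FPKM over the 4 libraries for each gene within 500 kb of the GIMAP cluster, by the distance of its lower end from that of Gimap8 in kb. The 8 GIMAP genes (blue) reach 10.9 to 289 FPKM, and the 23 other genes (grey) lie at or below 14.0 FPKM.

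Genes that work with GIMAP proteins were read from lists of the same fit, in which 53.2% of all genes tested were higher in mean in ACSS2NLS. Of 9 genes for proteins reported to bind GIMAP proteins or act with them, 0 passed, with 3 higher and 6 lower in mean, and the median log2 change was -0.045. At an unadjusted p under 0.05, 0 of the 9 were higher and 1, Gabarapl1, was lower, beside 3.1% and 2.87% of all genes tested. Gabarapl1, an autophagy adaptor of the ATG8 family, was at 19.0 and 17.3 FPKM in EV and at 14.5 and 14.7 FPKM in ACSS2NLS, with both ACSS2NLS libraries below EV (a log2 difference of -0.29 ± 0.11, adjusted p = 0.81). Gabarapl2, the partner of Gimap6, was at 14.0 and 12.4, then 14.5 and 13.4 FPKM. Bcl2, the survival factor, was at 15.2 and 29.9 FPKM in EV and at 16.0 and 14.0 FPKM in ACSS2NLS, where EV replicate 2 was the only high library. The cell death effector Bax was at 96.4 and 84.8, then 82.3 and 70.8 FPKM (a log2 difference of -0.24 ± 0.14, adjusted p = 0.82). Ctnnb1, which encodes beta-catenin, was at 17.1 and 24.6, then 20.01 and 35.2 FPKM, with replicate 2 the higher in both groups.

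Of 9 autophagy genes, 0 passed, with 2 higher and 7 lower in mean, and the median log2 change was -0.078. The autophagy initiation gene Becn1 was at 52.1 and 48.3 FPKM in EV and at 44.6 and 45.4 FPKM in ACSS2NLS (a log2 difference of -0.15 ± 0.11, adjusted p = 0.84), with both ACSS2NLS libraries below EV. Map1lc3a, a gene of the LC3 family of autophagosome proteins, was at 4.17 and 2.96, then 2.99 and 2.71 FPKM (adjusted p = 0.84), with EV replicate 1 the highest. Atg7, which encodes the enzyme that activates LC3 family proteins, was at 8.37 and 9.08, then 8.11 and 7.87 FPKM (adjusted p = 0.88). The cargo receptor gene Sqstm1 was at 120 FPKM in EV replicate 1 and at 80.9 to 87.4 FPKM in the other 3 libraries.

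Of 15 genes of lymphocyte quiescence and recirculation, 0 passed over all genes tested, with 9 higher and 6 lower in mean, and the median log2 change was 0.093. At an unadjusted p under 0.05, 3 of the 15 were higher (Tcf7, S1pr1 and Slfn2) and 0 lower, beside 3.1% and 2.87% of all genes tested. Slfn2, which keeps T cells quiescent, was at 109 and 129 FPKM in EV and at 154 and 159 FPKM in ACSS2NLS (a log2 difference of 0.39 ± 0.14, adjusted p = 0.81). Il7r, the IL-7 receptor chain that supports survival of resting T cells, was at 8.62 and 14.6, then 6.40 and 8.18 FPKM (adjusted p = 0.81). Tcf7, a transcription factor of progenitor T cells, was at 25.6 and 29.5, then 55.5 and 44.3 FPKM (adjusted p = 0.75), and S1pr1, a receptor for exit from tissue, at 1.29 and 1.66, then 3.45 and 2.89 FPKM (adjusted p = 0.78). The GIMAP median of 0.020 thus stood beside individual quiescence genes between -0.68 (Ccr7) and 0.83 (Tcf7), and a difference between the lists was not tested.

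The genes with library profiles most like the mean GIMAP profile included Abhd14a, Hmgb2, Vrk1 and Sp140. Likeness was the Euclidean distance between log2(FPKM + 1) values centred on each gene's mean over the 4 libraries. It was 0.020 to 0.031 for these 4. The median for all 9802 genes compared was 0.40, a gap that follows from choosing the closest genes. Hmgb2, a chromatin protein of dividing cells, was at 23.4 and 21.1 FPKM in EV and at 26.0 and 20.01 FPKM in ACSS2NLS. With 4 libraries, 181 genes lay within a distance of 0.1, so the profile is shared by many genes.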

How the data were processed

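The authors deposited 1 table of FPKM, with 3 decimals, for 24537 genes and 4 libraries. Per the file headers, these came from HOMER run on mm10 RefSeq transcripts, with tags on the sense strand of exons and 1 transcript kept for each gene. Per the submitters' processing notes, STAR 2.5.3a was also used. The header names 8 tag directories, and the 4 library columns were used. Columns named Acss2WT and Acss2OE were read as EV and ACSS2NLS, with replicate numbers as in the column names, and it is uncertain that these are the replicate numbers of the labels. A count test was not used, since FPKM are normalized values. Total tags were recovered from FPKM times gene length: 100% of the low values checked (500 to 2000 bases, up to 50 tags) were whole within 0.1 tag. The replicates of a group differed by more than counting noise.

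The 9810 genes whose mean reached 1 FPKM were tested on log2(FPKM + 1) with limma-trend (limma 3.58.1, R 4.3.3), two-sided, EV against ACSS2NLS. An exact permutation test of 2 against 2 cannot give a p below 0.333. Gene coordinates and promoters are GRCm38, the same assembly as mm10. Coding identity came from pairwise alignment in Biopython 1.88 with free end gaps. The members and lists were chosen with earlier results of these data known, and the motifs after the values were seen. Named are all members, Acss2, the tested neighbours, at most 4 genes of each list, those with the lowest p, and the 5 most like genes, of which 1 is not reported here. Acss2os, Gabarapl2, AI854703, Cdh5, Pecam1, Fcgr3, Eomes, Klrb1c and Ccr7 were named after their values were seen. Alternatives were another pseudocount, filter or scaling, no trend, a replicate block and leaving out each library.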

Additional observations from a re-analysis of the deposited data

How the results depend on the processing

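Over the 12 alternatives, 0 of the 96 values of the 8 GIMAP genes passed the threshold, and the smallest adjusted p was 0.28 (Gimap8 with the replicate block). Gimap1, Gimap6, Gimap8 and Gimap9 kept their direction throughout. Scaled to the T cell markers, Gimap4 turned to 0.012. Leaving out 1 library at a time, the log2 change ranged from -0.12 to 0.16 in Gimap3, from -0.30 to 0.12 in Gimap4, from -0.073 to 0.12 in Gimap5 and from -0.45 to 0.45 in Gimap7, all 4 turning in sign, and from 0.30 to 0.31 in Gimap8. A run without a library leaves a lone library in its group, assumed to vary like the other group. The GIMAP median was 0.020 in the main fit and ran from -0.097 without ACSS2NLS replicate 1 to 0.14 without ACSS2NLS replicate 2. It was also negative without EV replicate 2 (-0.012). Each shift was below the replicate SD of 0.14. That SD comes from the same differences between replicates, so this does not show that the median is stable. The count of genes called was 2 with all libraries, 1 with no filter and 2 to 11 with a library left out, the 11 without EV replicate 1.

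With the replicate number as a block, 401 genes were called (229 higher, 172 lower), and no GIMAP gene changed its call. Same-numbered libraries deviated together over the 9810 genes (correlation 0.583), as a hint from 2 pairs that the labels do not state, with numbers taken from the column names. The smallest number of tags behind a value was 1335 (Gimap9 in EV replicate 1), with a counting error of 2.74%.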
